A study of Homo sapiens with 6 samples.

Results

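The 10 genes described here are the peroxisome proliferator-activated receptor (PPAR) genes PPARA, PPARD and PPARG, the fatty acid binding protein genes FABP4 and FABP5, and 5 genes used as PPAR targets, PCK1, ANGPTL4, PLIN2, CPT1A and PDK4. They were chosen by name, and all 10 were found by their Ensembl identifiers among the 19469 genes counted. PPARs are nuclear receptors that bind DNA together with a retinoid X receptor (RXR) and are switched on by fatty acids and their derivatives. Fatty acid binding proteins carry these ligands through the cell, and FABP4 and FABP5 are known to hand them to PPARG and PPARD. The target genes act in fuel use: fat storage in droplets, fatty acid entry into mitochondria, the switch from glucose to fat as fuel, and the release of fat from lipoproteins.

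The RNA came from L3.6pl, an established human pancreatic cancer cell line from an adenosquamous carcinoma, kept in DMEM with serum and given no treatment. Cells were sorted by FACS on surface L1CAM, an adhesion molecule, into L1CAM-positive cells (L1high, 3 libraries) and L1CAM-negative cells (L1low, 3 libraries). The groups share the line and the culture conditions. The sample labels write the line as L6.6pl in 1 field and as L3_6PL in the titles. The labels do not say whether libraries of a group came from separate cultures or sorts, so the p-values measure the spread between these libraries, which may be technical. A difference in bulk RNA can come from fewer cells that express a gene or from less RNA per cell, and these cannot be told apart here.

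Total counts ran from 16334610 to 21064685 per library. L1CAM itself stood at 69.8 to 89.5 CPM (counts scaled to a common library total with TMM factors) in L1high and at 17.7 to 23.7 in L1low cells. All 7 epithelial markers had a row, with summed levels of 4542 to 5151 CPM in L1high and 5028 to 5414 in L1low cells. Of them 3 (42.9%) were called, KRT19 higher and EPCAM and CLDN4 lower in L1low cells, beside 7.95% of all genes. Of the markers of other cells that also use these genes, 5 of 10 for adipocytes had a row (summed 15.0 to 17.6 CPM in L1high and 12.8 to 14.4 in L1low cells, ADIPOQ, LEP, CIDEC, LPL and GPD1 having none), 3 of 8 for endothelium (19.4 to 21.5 against 19.1 to 19.7 CPM, CDH5, VWF, KDR, TEK and CD34 having none) and 3 of 9 for macrophages (16.4 to 18.4 against 13.9 to 17.2 CPM, PTPRC, CD14, CSF1R, LYZ, CD163 and MARCO having none). FABP4 and CD36 stand in all 3 of these lists, and CD36 was the marker called in them. It made up 20% of the adipocyte, 33.3% of the endothelial and 33.3% of the macrophage rows, beside 7.95% of all genes called. Of 7 fibroblast markers, LUM alone had a row, at 78.1 to 89.8 CPM in L1high and 129 to 150 in L1low cells, and it was called higher. The part of these markers in the results was not tested. Genes enter the deposited table only above 1 CPM in at least 2 libraries, so a missing row sets no lower level than that.

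L1low and L1high cells were compared to ask which PPAR genes differ with surface L1CAM. ANGPTL4, PPARD and PLIN2 rose in L1low cells, and FABP5, PDK4 and PCK1 fell. PPARA, PPARG, CPT1A and FABP4 did not pass the test. Thus 6 of the 10 genes were called at an adjusted p under 0.05, 3 in each direction, in the quasi-likelihood test of edgeR, with p adjusted over all genes by Benjamini-Hochberg. Over all genes tested 7.95% were called, 4.58% higher and 3.37% lower in L1low cells. The median log2 fold change (L1low minus L1high) of the 10 genes was -0.0029, beside -0.0087 over all genes. In 8 of the 10 the CPM of the groups did not overlap, 4 higher and 4 lower, as in 28.8% of all genes (15.2% higher and 13.7% lower). FABP4 and PCK1 exceeded 1 CPM only in L1high libraries, so the minimum of the table let them in through the group where they are high, and their lower values in L1low cells are partly set by it. Of the other 8 genes 5 were called, 3 higher and 2 lower, 6 did not overlap, 4 higher and 2 lower, and the median was 0.11. The study reported PPAR signaling as an enriched pathway from these same libraries. The legend of that panel speaks of upregulated genes in L1low and L1high cells. The study filtered its genes by a fold change limit and a less strict limit on the adjusted p. The calls here use no fold change limit, so they are not alike. It proposes that PPAR signaling and other pathways may contribute to the aggressiveness of L1low cells, and its text names no gene under the term. As the libraries are the same, the direction of the genes here is not independent evidence. The supplementary table of the study leaves out L1high replicate 3 without a stated reason. Without that library 5 genes were called, PCK1 no longer among them, beside 7.57% of all genes.

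**Figure D1:**
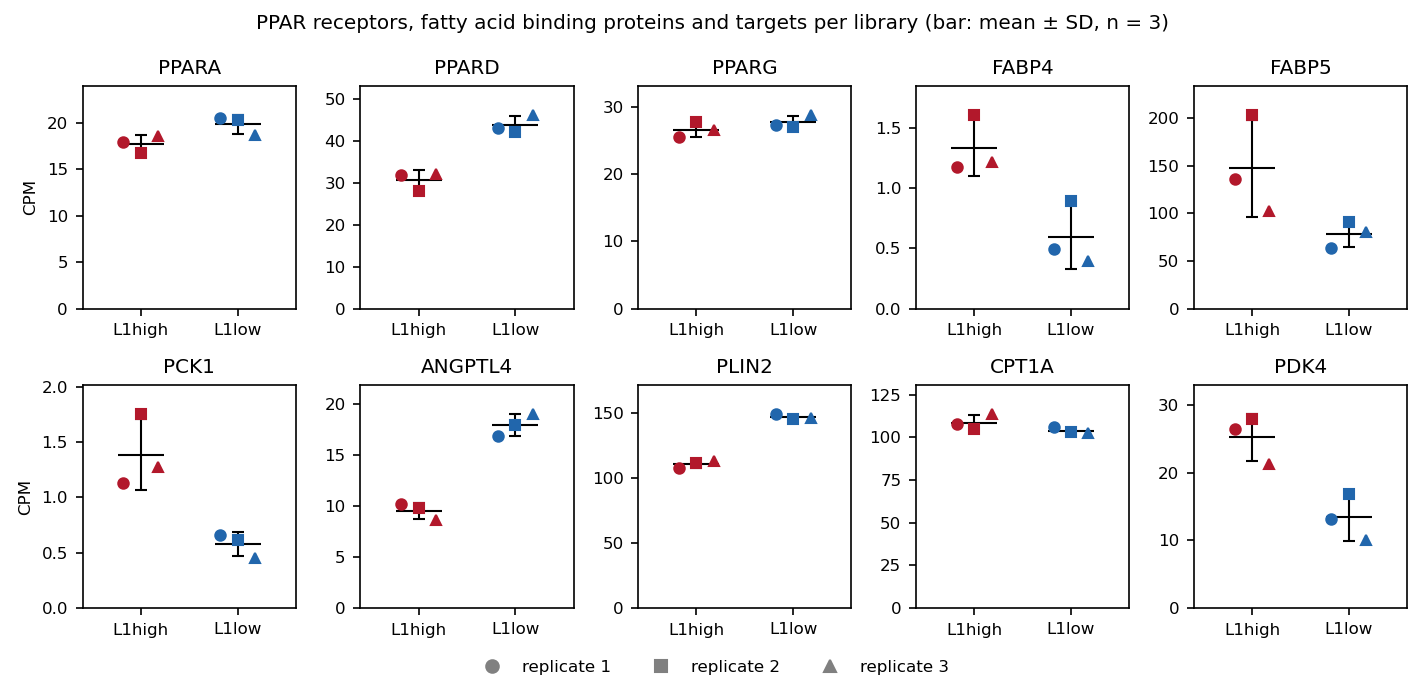
CPM (y axis, from 0) of each of the 10 genes in the 3 L1high (red) and 3 L1low (blue) libraries, with the mean and SD of each group as a bar and the replicate number as the marker shape. ANGPTL4, PLIN2, PPARD and, narrowly, PPARA lie higher in every L1low library, and FABP4, FABP5, PCK1 and PDK4 lie lower. FABP4 and PCK1 entered the table through L1high libraries alone.

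Per kilobase of exon, the L1high levels of the 10 genes ran from FABP5 (77.5 CPM per kb) through PLIN2 (22.1), CPT1A (16.5), PPARD (6.90), PDK4 (5.54), ANGPTL4 (3.85), PPARG (2.22), PPARA (1.35) and FABP4 (0.975) to PCK1 (0.203). Exon lengths join all annotated transcripts of a gene, so these levels are approximate. The FABP5 level is that of its own row alone. That row held between 8.67% and 13.9% of the summed counts of FABP5 and its pseudogene rows, described below. In L1low cells ANGPTL4 stood at 7.23 CPM per kb and PDK4 at 2.94, so that their order was turned.

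PPARD (chromosome 6, GRCh38) encodes the PPAR isotype that is most widely expressed across tissues. Its level was 31.9, 28.1 and 32.2 CPM in L1high replicates 1, 2 and 3 and 43.0, 42.2 and 46.3 CPM in the L1low replicates. Every L1low library lay above every L1high library, and the mean was 1.42 times higher in L1low cells (43.8 ± 2.15 against 30.8 ± 2.27 CPM, SD, n = 3). The log2 fold change was 0.51 (standard error, SE, 0.09, adjusted p = 0.0042 in the edgeR test).

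PPARG (chromosome 3), the master regulator of fat cell differentiation, stood at 25.5, 27.7 and 26.6 CPM in L1high and at 27.2, 27.0 and 28.7 CPM in L1low replicates 1, 2 and 3. These values overlapped. Its log2 fold change was 0.06, with a 95% interval from -0.13 to 0.25 (adjusted p = 0.73 in the edgeR test). The processed pseudogene PFDN1P1 lies within PPARG on the same strand. PPARA (chromosome 22), the PPAR isotype of fatty acid oxidation in liver, stood at 18.01, 16.8 and 18.6 CPM in L1high and at 20.5, 20.3 and 18.7 CPM in L1low cells. The groups did not overlap but were separated only narrowly, between 18.6 and 18.7 CPM. The log2 fold change of 0.16 had an interval from -0.05 to 0.37 (adjusted p = 0.36 in the edgeR test).

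Among the targets, ANGPTL4 (ENSG00000167772, chromosome 19) showed the largest rise of the 10 genes. It encodes a secreted inhibitor of lipoprotein lipase. Its level was 10.1, 9.78 and 8.65 CPM in L1high replicates 1, 2 and 3 and 16.8, 17.9 and 19.0 CPM in the L1low replicates. The groups were far apart, and the L1low mean was 1.88 times the L1high mean (log2 fold change 0.91, SE 0.11, adjusted p = 4.3e-04 in the edgeR test). PLIN2 (ENSG00000147872, chromosome 9), a coat protein of lipid droplets, stood at 107.7, 111 and 113 CPM in L1high and at 149, 146 and 147 CPM in L1low cells. The replicates lay close together in both groups, and the L1low mean was 1.33 times higher (log2 fold change 0.41, SE 0.06, adjusted p = 0.0018 in the same edgeR test).

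PDK4 (ENSG00000004799, chromosome 7), a kinase that shuts off pyruvate dehydrogenase and so spares glucose, moved the other way. It stood at 26.4, 27.8 and 21.3 CPM in L1high replicates 1, 2 and 3 and at 13.2, 16.9 and 10.1 CPM in the L1low replicates. The lowest L1high library remained above the highest L1low library, and the L1high mean was 1.88 times the L1low mean. The log2 fold change was -0.92 (SE 0.17, adjusted p = 0.0061 in the edgeR test). The calls of PPARD, ANGPTL4, PLIN2 and PDK4 held without any single library.

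PCK1 (ENSG00000124253, chromosome 20), the cytosolic enzyme that makes phosphoenolpyruvate for new glucose and glycerol, was barely counted. It had 24, 36 and 21 counts in L1high and 12, 11 and 8 counts in L1low replicates 1, 2 and 3. Each L1low library held fewer than any L1high library. The level was 1.39 ± 0.324 CPM in L1high against 0.575 ± 0.109 in L1low cells (SD, n = 3), a log2 fold change of -1.26 (SE 0.33, adjusted p = 0.038 in the edgeR test). As PCK1 entered the table through L1high libraries alone, its test is not free of that choice. This call needed all 6 libraries: without any one of them the adjusted p lay between 0.056 (without L1high replicate 3) and 0.12 (without L1low replicate 2), while the log2 fold change kept between -1.399 and -1.05. CPT1A (chromosome 11), which brings long-chain fatty acids into mitochondria, stood at 107.5, 105 and 113 CPM in L1high and at 106, 103 and 103 CPM in L1low cells. The groups overlapped, and the log2 fold change was -0.06 with a 95% interval from -0.21 to 0.08 (adjusted p = 0.60 in the edgeR test).

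**Figure D2:**
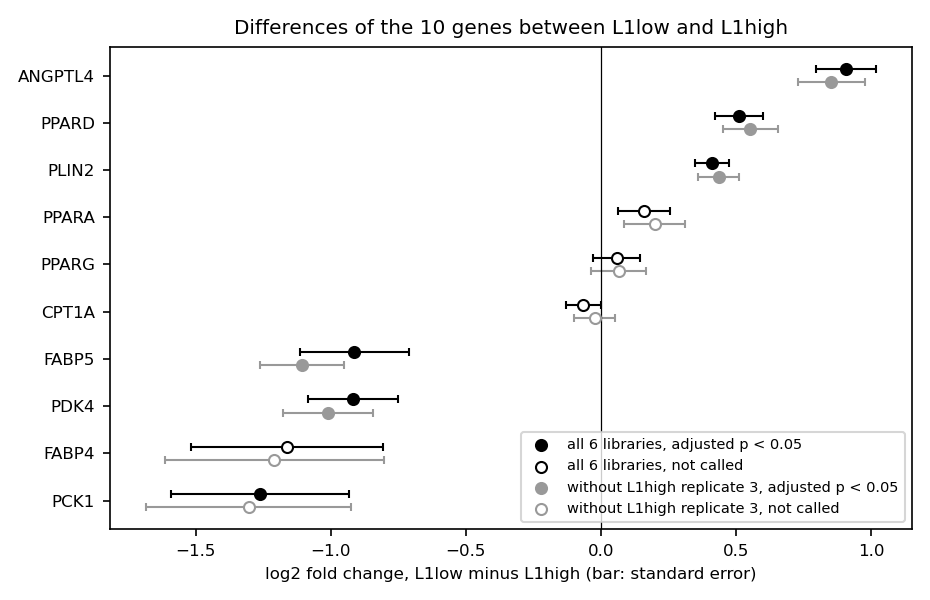
Log2 fold change (x axis, L1low minus L1high) with its standard error for each of the 10 genes, over all 6 libraries (black) and without L1high replicate 3 (grey), filled where the adjusted p was under 0.05. ANGPTL4, PPARD and PLIN2 lie on the right and FABP5, PDK4, FABP4 and PCK1 on the left under both, and PCK1 is filled only over all 6 libraries.

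PPAR and RXR bind a direct repeat of AGGTCA spaced by 1 base, called DR1. The motif AGGTCANAGGTCA was searched on both strands from 5000 bases before to 5000 after the start of the canonical GENCODE transcript. No window of the 10 genes held an exact match, which 0.669% of 13457 protein-coding windows did. With at most 1 mismatch 1 of the 10 windows held a match, that of PDK4, beside 9.44% of all windows. With at most 2 mismatches it was 6 of the 10, beside 62.8% of all. The best match nearest to the start is shown for the target genes with at most 2 mismatches, to put their letters beside the motif. Distances are counted from the start of the canonical transcript. The PLIN2 match, upstream of that start, still lies within the full annotated extent of the gene (chr9:19108375-19149290). The capitals mark the 13 bases compared with DR1, written along the strand of the match.
PDK4, chr7:95601221-95601249, plus strand, 4719 bases upstream, 1 mismatch: cttggaggAAGTCATAGGTCAtctgactt
PLIN2, chr9:19129799-19129827, minus strand, 2321 bases upstream, 2 mismatches: ctgatgcaAAGTAAGAGGTCAttagagca
PCK1, chr20:57560673-57560701, minus strand, 423 bases upstream, 2 mismatches: tcaccccaTAGTCAAAGGTCAcagtcaaa
CPT1A, chr11:68840724-68840752, minus strand, 1178 bases downstream in an intron, 2 mismatches: gtcaggagAGGCCATGGGTCAgcgtcttt
Of these genes PLIN2 rose, PDK4 and PCK1 fell and CPT1A was not called. ANGPTL4, which rose most, had no match with fewer than 3 mismatches in its window. Matches of letters in the genome are no measurement of binding.

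FABP5 and FABP4, neighbours on chromosome 8, encode small carriers of fatty acids, FABP5 being the epidermal and FABP4 the adipocyte form. FABP4 was close to the limit of the table, which it passed in L1high libraries alone, with 25, 33 and 20 counts in L1high and 9, 16 and 7 counts in L1low replicates 1, 2 and 3. The groups did not overlap. Its level was 1.33 ± 0.236 CPM in L1high and 0.594 ± 0.262 in L1low cells (SD, n = 3), and the log2 fold change of -1.16 (SE 0.36) missed the threshold with an adjusted p of 0.071 in the edgeR test. A long noncoding RNA gene on the opposite strand, ENSG00000253859, overlaps FABP4 and had a log2 fold change of 0.03. The strand setting of the counting is not given in the sources used here.

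FABP5 (ENSG00000164687) stood at 136, 203 and 103 CPM in L1high replicates 1, 2 and 3 and at 64.0, 90.6 and 80.6 CPM in the L1low replicates. L1high replicate 2 was high, and L1high replicate 3 lay near the highest L1low library. The mean fell from 147 ± 51.2 to 78.4 ± 13.5 CPM (SD, n = 3), a log2 fold change of -0.91 (SE 0.20, adjusted p = 0.017 in the edgeR test). Its size depended on L1high replicate 2, without which it was -0.61 (adjusted p = 0.034), and its call on the L1low libraries, with an adjusted p of 0.058 without L1low replicate 1 and 0.051 without L1low replicate 2.

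The long noncoding RNA gene LNMICC overlaps FABP5 on the opposite strand. It stood at 38.3 ± 6.88 CPM in L1high and 27.3 ± 9.03 in L1low cells (SD, n = 3) without overlap of the groups, with a log2 fold change of -0.49 that missed the threshold (adjusted p = 0.19 in the edgeR test). Its part in the FABP5 row was not tested.

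FABP5 cannot be read from its own row alone. GENCODE lists 15 FABP5 pseudogenes of the processed kind, which are copies of its mRNA, and 4 of them had a row. FABP5P7, on the minus strand of chromosome 11 (chr11:59781318-59781722), matched the FABP5 coding sequence at all 403 aligned bases, without a mismatch. FABP5P1 and FABP5P2, both on chromosome 13, matched at 98.52% and 97.78% of bases, and FABP5P9 on chromosome 15 at 96.53%. The coding sequence of FABP5, 405 bases long, crosses 3 exon junctions, and 41.3% of its 50-base windows span one. Every one of these 147 windows occurs unbroken in FABP5P7, 76.9% occur in FABP5P1, 40.8% in FABP5P2 and 3.4% in FABP5P9. The reads were aligned with BWA, in a mode that the paper does not name. How reads that span a junction were placed was not tested.

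In the counts FABP5P7 was the largest of these rows by far. It held 20209, 22047 and 15554 counts in L1high and 9064, 8603 and 9428 counts in L1low replicates 1, 2 and 3, beside 2890, 4178 and 1688 and then 1162, 1626 and 1428 for FABP5. Thus FABP5P7 took between 73.0% and 79.8% of the counts of the 5 rows in every library, and FABP5 between 8.67% and 13.9%. The share of FABP5 was highest in replicate 2 of both groups. Processed pseudogenes as a class held between 10.6% and 11.9% of all counts per library.

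The FABP5P7 row separated the groups more cleanly than FABP5. It stood at 953, 1073 and 947 CPM in L1high and at 499, 479 and 532 CPM in L1low replicates 1, 2 and 3, with no overlap and a narrow spread. Its log2 fold change was -0.98 (SE 0.07, adjusted p = 7.4e-06 in the edgeR test). FABP5P1 (-0.88, SE 0.14) and FABP5P2 (-1.09, SE 0.19) fell too, with adjusted p of 0.0026 and 0.0041. FABP5P9, the least like FABP5 of the 4, stood at 1.64 ± 0.268 CPM in L1high and 1.66 ± 0.686 in L1low cells (SD, n = 3) and had a log2 fold change of 0.0084 (adjusted p = 0.99 in the edgeR test), whose sign depended on the scaling. FABP5P9 lies in AKAP13 on the same strand, and FABP5P7 lies opposite STX3 (log2 fold change -0.31, not called).

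With FABP5 and its 4 pseudogene rows added into 1, the level was 1222, 1470 and 1187 CPM in L1high and 630, 652 and 707 CPM in L1low replicates 1, 2 and 3. The L1high mean was 1.95 times the L1low mean. The log2 fold change of the sum was -0.96 (SE 0.08, adjusted p = 3.4e-05 in the edgeR test). It was called under every alternative run, also without each library in turn, and ran from -1.01 to -0.86 over them. How the reads of the sum divide between the gene and its copies was not tested.

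**Figure D3:**
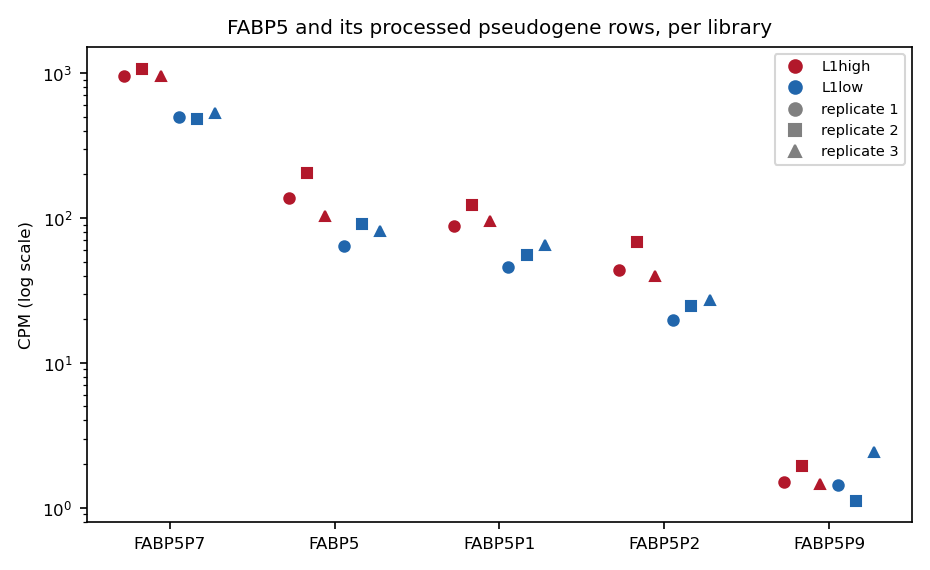
CPM (y axis, log scale) of FABP5 and its 4 pseudogene rows in each library, red for L1high and blue for L1low, with the replicate number as the marker shape. FABP5P7 lies highest, at 947 to 1073 CPM in L1high and 479 to 532 in L1low libraries, and FABP5P9 lies at 1.11 to 2.43 CPM with both groups mixed.

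The wider pathway was described with a list of 73 genes written from general knowledge of the KEGG PPAR signaling pathway, of which 49 had a row. Of these, 15 (30.6%) were called, 9 higher and 6 lower in L1low cells, beside 7.95% of all genes, and 34 were not called. The list holds all of the 10 genes except PDK4, so PPARD, ANGPTL4, PLIN2, FABP5 and PCK1 are counted again among its calls. The median log2 fold change was 0.08. Besides the genes above, MMP1 (log2 fold change 1.45) and OLR1 (0.57) rose. MMP1 encodes a collagenase and OLR1 a receptor for oxidised lipoprotein, and neither burns or stores fat. SCD, a fatty acid desaturase, also rose, by 0.25. ACOX2, a peroxisomal oxidase (-0.81), fell, as did PCK1, FABP5, CD36 and 2 fatty acid transporters. PCK1 counts among the falls although it entered the table through L1high libraries alone. The number of calls was 7 without L1high replicate 1 (6 higher, 1 lower), where 3.46% of all genes were called, and 5 without L1low replicate 2 (5 higher, 0 lower), where 3.22% were.

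Receptors, their RXR partners and coregulators had higher values in L1low cells in 21 of 22 genes (median log2 fold change 0.18). Of them 5 (22.7%) were called, all higher. The list also holds the receptor genes NR1H3 and NR1H2, which are not PPAR genes, and coregulators that are not particular to PPARs. Over all genes 48.5% had higher values in L1low cells and 4.58% were called higher. RXRA, an RXR partner of the PPARs, stood at 93.3 CPM in L1high and 129 in L1low cells (log2 fold change 0.46, SE 0.08, adjusted p = 0.0042 in the edgeR test). PPARD and the coactivators NCOA3 (0.37) and CREBBP (0.32) were also among them. Under each of the scalings tried 21 of the 22 were higher, while 3 were called without L1high replicate 1 (3.46% of all genes) and 2 without L1low replicate 2 (3.22%).

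Genes of fatty acid uptake and activation moved both ways, 2 of 13 rising and 3 falling (38.5% called, beside 7.95% of all genes). CD36, a fatty acid translocase, fell from 7.32 to 4.84 CPM (log2 fold change -0.60), as did the transporters SLC27A4 (-0.43) and SLC27A2 (-0.38). ACSL4, which activates arachidonic acid, rose with OLR1, by 0.41. Without L1low replicate 2 none of the 13 was called, beside 3.22% of all genes, and without L1high replicate 1 it was 1, beside 3.46%. Among 8 intracellular lipid binding proteins FABP5 alone was called (12.5%), and CRABP2 had a log2 fold change of -0.68 (adjusted p = 0.076 in the edgeR test).

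Of 19 lipid droplet and triglyceride genes 5 (26.3%) were called, beside 7.95% of all genes. The droplet coat gene PLIN3 rose (log2 fold change 0.41) along with PLIN2 and ANGPTL4. MGLL, the lipase of monoglycerides (-0.72, SE 0.10, adjusted p = 0.0012 in the edgeR test), and ABHD5, the coactivator of the main triglyceride lipase (-0.60, SE 0.13, adjusted p = 0.014), fell. The lipase PNPLA2 itself had a log2 fold change of 0.10 and was not called. Between 4 and 5 of these genes were called when any single library was left out. Over all genes the share called then ran from 3.22% (without L1low replicate 2) to 7.57% (without L1high replicate 3).

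The shares of fatty acid oxidation genes called were near that of all genes. Of 23 mitochondrial genes 1 was called, ACAT1, a thiolase of ketone bodies (-0.31), and of 15 peroxisomal genes 1, ACOX2 (shares of 4.35% and 6.67%, beside 7.95% of all genes). Both calls were lost without any single library. The log2 fold changes of the mitochondrial genes ran from -0.66 to 0.16 with a median of -0.02. Among 15 genes around pyruvate dehydrogenase and glycerol synthesis, PDK4 and PCK1 were the 2 called (13.3%, beside 7.95% of all genes), both lower, PCK1 having entered the table through L1high libraries alone, and the kinases PDK1 (0.07), PDK2 (0.25) and PDK3 (-0.23) were not called.

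**Figure D4:**
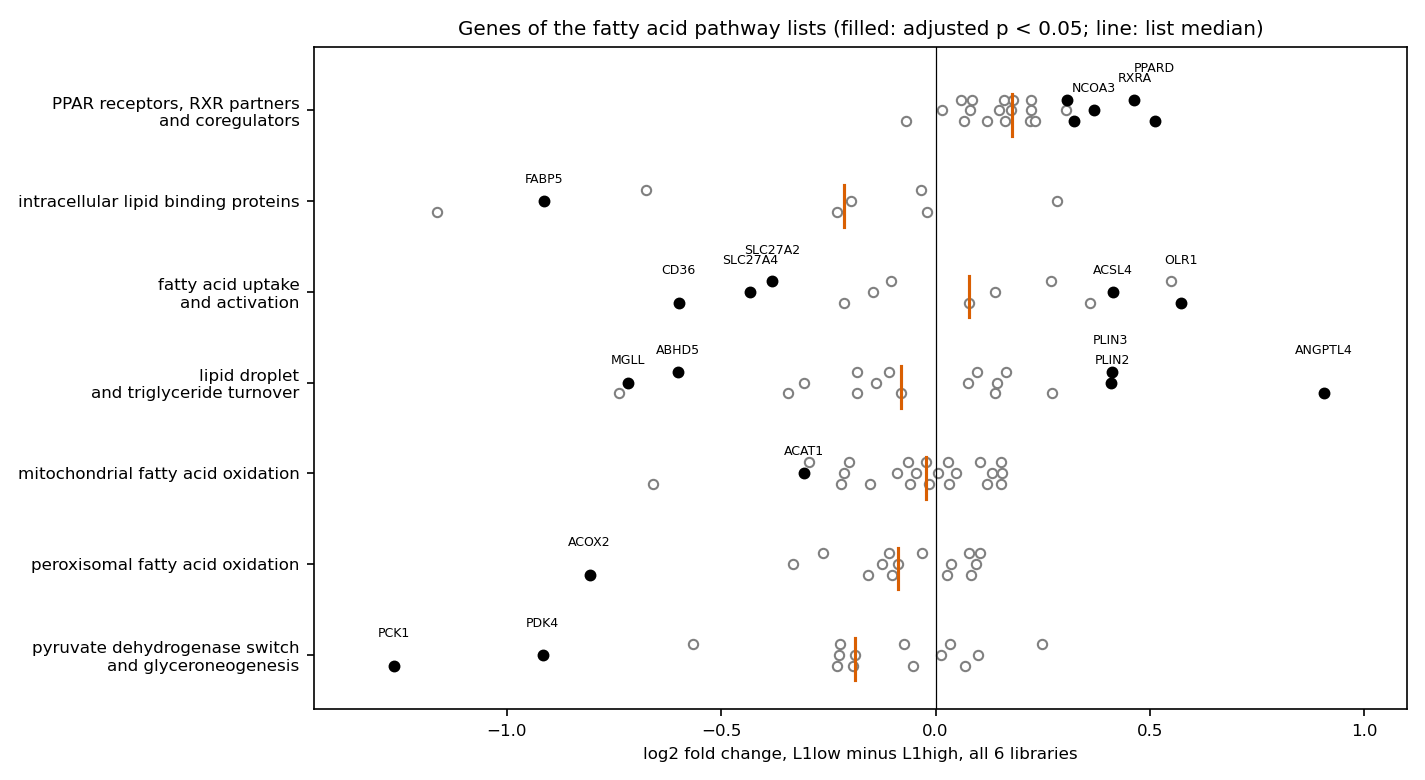
Log2 fold change over all 6 libraries (x axis, L1low minus L1high) of each gene of the 7 role lists (rows), filled where the adjusted p was under 0.05, with names for up to 3 called rises and 3 called falls per list and an orange line at the list median. Receptors and coregulators lie to the right with a median of 0.18, droplet and uptake genes lie on both sides, and the oxidation genes lie around 0.

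By Pearson correlation of log2 CPM over the 6 libraries, which share depth and the group difference, the genes most like ANGPTL4 were MMP2 (r = 0.998), DCAF5, ANOS1, RHBDD1 and APP (0.995). Those most like FABP5 were ANK3 (0.998), DPH6, the pseudogene PRPF38AP2, SLBP and ECHDC1 (0.990). For PCK1 they were IDH3A (0.998), TPD52L1, P2RX5, PTPN18 and TFPI2, and for FABP4 FAM216A (0.987), ENSG00000226535, the pseudogene EIF1AXP1, ANKRD29 and LACTB2. With 6 libraries these values describe likeness only.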

How the data were processed

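TruSeq stranded mRNA libraries were read paired-end. The authors aligned reads to GRCh38 with BWA and counted them with featureCounts per gene of Ensembl release 94. The deposited values are raw read counts per gene, without normalization. Versions, strand and multi-mapping options are not given in the sources used here. Symbols and coordinates came from GENCODE release 44 (GRCh38), which named 19344 of 19469 identifiers. Genes without a symbol held 0.315% of counts.

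Counts were tested over all 6 libraries in R 4.3.3 with edgeR 4.0.16 (TMM, filterByExpr keeping 19467 genes, quasi-likelihood test, Benjamini-Hochberg over all genes, calls under 0.05). Standard errors are the log2 fold change divided by the square root of F. Tested on simulated counts of 19469 genes, 200 of them with a log2 change of 1, the fit recovered 171 (85.5%), and 8 of its 179 calls were false. Smaller changes, such as those of PPARD (0.51) and PLIN2 (0.41), were not simulated. Alternatives were DESeq2 1.42.0, RLE, upper-quartile or library-size scaling, 2 other filters, the replicate number as a block, each library left out, FABP5 rows summed and, for the 10 genes, a threshold of 0.1.

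The genes and lists were chosen with earlier results of these data known. Named were the 10 genes, FABP5 pseudogene rows, L1CAM, up to 3 called rises and 3 called falls per list, and the 5 genes most like FABP5, FABP4, PCK1 and ANGPTL4 (average log2 CPM of at least 1, prior count 2). Other list genes and the overlapping genes were named after their values were seen. Some called list genes are counted but not reported here by name.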

Additional observations from a re-analysis of the deposited data

How the results depend on the processing

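Over 663 values of 48 results, 559 kept their call and sign or, for counts, stayed within 1.5 times the reported one. The calls of ANGPTL4, PLIN2, PPARD, PDK4 and the summed FABP5 rows held under every alternative run, and between 4 and 7 of the 10 genes were called. The number of genes called over the whole table was 1548, of which 891 were higher. It ran from 627 to 1473 when 1 library was left out, the lowest without L1low replicate 2 and 674 without L1high replicate 1, and the pathway list then gave from 5 to 14 calls. DESeq2 gave no adjusted p for FABP4 and PCK1, and a minimum of 10 counts removed both. FABP5P9, never called, had a log2 fold change of 0.0084 that changed sign with library-size scaling (-0.0041), with the replicate block (-0.029), and without L1high replicate 1 (-0.053), L1high replicate 3 (-0.052) or L1low replicate 3 (-0.36), running up to 0.23 without L1low replicate 2. The causes were not tested.

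The replicate numbers were not taken to pair the samples, since the correlations of deviations between same-numbered libraries were 0.074, 0.091 and 0.21, although each library correlated best with its own number. With the replicate block 2363 genes were called, and FABP4 among them (log2 fold change -1.17, adjusted p = 0.040 in the edgeR test), while no other of the 10 genes changed its call. PCK1 and FABP4 rest on 7 to 36 counts per library, which limits their precision.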
